A study of Mus musculus with 4 samples.

Results

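The genes described here are the liver genes of the study's table of circadian genes whose RNA was highest at ZT12, the onset of darkness, apart from the core clock genes and their close relatives (the Arntl, Clock, Npas2, Per, Cry, Nr1d, Ror, Dbp, Tef, Hlf, Nfil3 and Bhlhe families) and the Cyp genes. They number 479 of the 1254 different genes in that table. Of the 487 table genes with this peak time, 8 belonged to the families set aside (Bhlhe40, Cry2, Cyp2a5, Dbp, Nr1d2, Per1, Per3 and Tef), and the remaining 775 table genes (all other peak times, and those 8) served as the comparison. The study followed chromatin folding and gene expression in mouse liver over the day, and its ChIP-seq experiment asked where the architectural protein CTCF was bound at ZT0, when lights came on, and at ZT12. Livers came from male C57BL/6 mice, given as 8 weeks old and as wild type (spelled "wilde type"), which had free access to food under equal light and dark phases. The study's methods give this age for the start of that housing, before the livers were taken. Each time point had 2 biological replicates, 4 samples in all, and the peaks of both replicates were deposited as a single list per time point. The lists give positions in the mm9 genome and no height, score or replicate, so no value below has a replicate error, the depth behind a site is unknown, and a site missing from a list is not shown to be unbound. The lists are labelled with FIMO, a motif search tool. They hold fewer sites than the total that the study states, so they cover only a part of those sites. Every share with a site, distance and shared percentage below refers to the listed sites alone.

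CTCF is a zinc-finger protein that binds a long, asymmetric DNA motif and, together with cohesin, sets the ends of chromatin loops and domains. Its binding is largely shared between cell types, and the orientation of its motifs is known to matter for which sites are joined by a loop. Liver genes that peak at the start of the night include outputs of the clock activators CLOCK and ARNTL, and many act in feeding-related metabolism, protein secretion and the cell cycle.

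Of the 479 genes, 328 had at least 1 ZT0 site in the gene body extended by 50 kb on each side (68.5%, 95% Wilson interval 64.2 to 72.5%), against 71.5% of all 1254 circadian genes. At ZT12, 262 had at least 1 site (54.7%, interval 50.2 to 59.1%), against 58.7% of all circadian genes. With this extension the shares were slightly below those of the whole table. They depended on the distance allowed and on the sites used, with 40.9% at ZT0 and 29.4% at ZT12 for an extension of 10 kb, and 47.4% and 37.8% when only sites above the median width of each list (the wider sites) were used. Among the 775 other genes the shares were 73.4% at ZT0 and 61.2% at ZT12. With an extension of 10 kb they were 44.0% and 33.3%, and with the wider sites 54.8% and 43.0%. Role-list counts given below for these settings are to be read against these lower shares. With the 50 kb extension, the difference between the groups was -4.94 percentage points at ZT0 (95% Newcombe interval -10.2 to 0.192) and -6.46 points at ZT12 (interval -12.1 to -0.853). The ZT12 interval held 0 with a 10 kb extension (-9.03 to 1.47) and with the wider sites (-10.7 to 0.424). The ZT0 interval did not hold 0 under several alternatives, which are listed in the closing section. All intervals here and below cover counting error only, and neighbouring genes share sites and so are not independent.

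The counts were also read per length. The genes peaking at ZT12 were longer, with a median of 29.3 kb against 23.5 kb for the others. Their mean number of ZT0 sites did not rise with length, at 1.56, 1.57, 1.35 and 1.45 per gene from the shortest to the longest of 4 length ranges. The density was 0.964 ZT0 sites per 100 kb against 1.14 for the others, and 0.649 ZT12 sites per 100 kb against 0.786. Genes peaking at ZT6, with a median length of 34.5 kb, had similar densities of 0.937 and 0.630 sites per 100 kb. Among genes of up to 12.9 kb, 68.3% of the 120 peaking at ZT12 had a ZT0 site, compared with 79.8% of the 247 others in that length range, and 55.0% compared with 68.8% had a ZT12 site. Between 12.9 and 29.3 kb the shares were 70.0% against 73.8% at ZT0 and 63.3% against 61.9% at ZT12. Between 29.3 and 63.1 kb the genes peaking at ZT12 had the higher share at both times, with 70.6% against 65.9% at ZT0 and 57.1% against 50.3% at ZT12. Above 63.1 kb, 43.3% had a ZT12 site compared with 60.1% of the others, while at ZT0 the shares were 65.0% and 71.2%. The order of the groups thus varied with length.

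The peak times also differed among the other genes. Genes peaking at ZT6 had a ZT0 site in 69.0% of cases (342 genes), close to the value of those peaking at ZT12, and genes peaking at ZT0 in 78.6% (220 genes). Genes peaking at ZT18 lay between, at 75.1% (205 genes). For the ZT0 list, the lower share was hence seen for both the ZT6 and the ZT12 genes. Of all 22350 annotated protein-coding genes on the autosomes and chromosome X, 58.2% had a ZT0 site and 48.1% a ZT12 site, below every one of these circadian groups.

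The number of sites per gene was small. At ZT0, 151 of the genes had no site, 146 had 1, 128 had 2 or 3, 52 had 4 to 6, and 2 had more. At ZT12, 217 had none, 130 had 1, 110 had 2 or 3 and 22 had 4 to 6. The mean was 1.48 sites at ZT0 and 0.998 at ZT12, compared with 1.73 and 1.19 for the others. The median was 1 site at both times in both groups, too coarse a measure for counts this small to compare the groups.

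From the gene start, the nearest ZT0 site lay at a median of 34.8 kb (95% order-statistic interval 30.2 to 44.2 kb), compared with 28.6 kb for the others (25.1 to 33.7 kb). The nearest ZT12 site lay at 59.7 kb (48.5 to 73.1 kb), compared with 43.8 kb (38.4 to 50.8 kb). The medians were thus longer than those of the pooled other genes, with overlapping intervals. With the widest ZT0 sites, as many as at ZT12, the ZT0 intervals did not overlap (48.0 to 73.0 kb and 35.8 to 44.1 kb). Genes peaking at ZT6 had similar medians of 39.2 kb at ZT0 and 54.6 kb at ZT12, and all protein-coding genes longer ones of 47.7 and 76.1 kb. With the wider sites alone, the medians of the genes peaking at ZT12 rose to 80.4 kb at ZT0 and 119 kb at ZT12. Those of the others rose to 51.8 and 98.3 kb. A ZT0 site lay within 1 kb of the start in 40 genes (8.35%), within 10 kb in 99 (20.7%) and within 100 kb in 361 (75.4%), compared with 11.1%, 24.6% and 79.9% of the others. The same counts at ZT12 were 24 (5.01%), 65 (13.6%) and 300 (62.6%), compared with 8.39%, 17.8% and 69.4%. In both groups few starts had a site within 1 kb and most had one within 100 kb. Of the 276 genes with a ZT0 site within 50 kb of the start, the nearest one lay upstream in 148, downstream in 105 and over the start in 23, compared with 249, 212 and 41 of 502 for the others. At ZT12 the sides were nearly equal, with 109 upstream, 99 downstream and 13 over the start of 221. The others were similar at ZT12, with 201 upstream, 183 downstream and 30 over the start of 414.

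**Figure D1:**
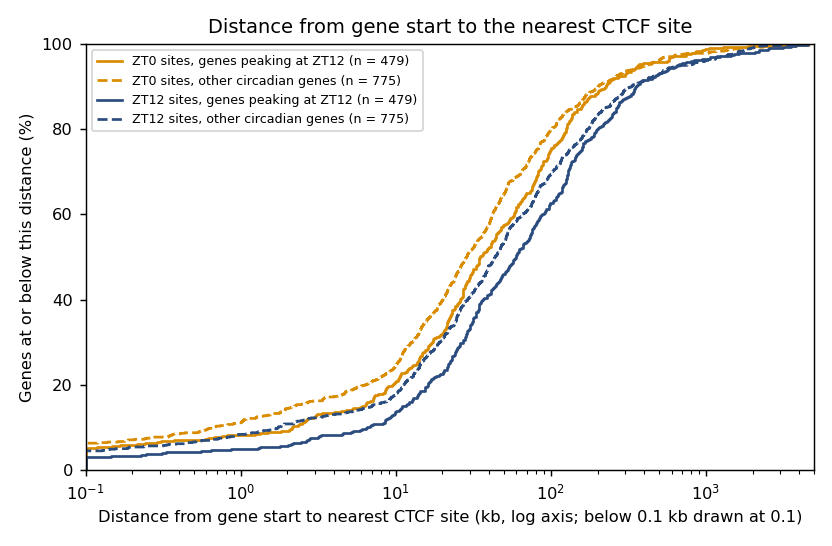
Cumulative share of genes (vertical axis, percent) against the distance from the gene start to the nearest CTCF site (horizontal axis, kb, log scale), for genes peaking at ZT12 (solid lines, n = 479) and other circadian genes (dashed lines, n = 775), with ZT0 sites in orange and ZT12 sites in blue. For both lists the solid line runs to the right of the dashed line over most of the range, with medians of 34.8 against 28.6 kb at ZT0 and 59.7 against 43.8 kb at ZT12.

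Sites of the lists as deposited, which differ in length, were compared gene by gene. Of the 479 genes, 193 had more ZT0 than ZT12 sites (40.3%, interval 36.0 to 44.7%), against 41.5% of all circadian genes. The reverse held for 33 (6.89%, interval 4.95 to 9.52%), against 6.94% of all circadian genes. Both shares were near those of the whole table. The lists themselves differ in length, with 10113 sites at ZT0 and 6799 at ZT12, a ratio of 0.672 ZT12 sites per ZT0 site, and the sites counted near the genes peaking at ZT12 stood at 0.673. The ratio near these genes was therefore close to that of the whole lists. With only the widest ZT0 sites, as many as at ZT12, 20.3% of the genes had more ZT0 sites (interval 16.9 to 24.1%) and 17.5% more ZT12 sites (14.4 to 21.2%), with overlapping intervals. At least 1 site in each list, overlapping or not, was present for 246 genes (51.4%, compared with 58.8% of the others), and no site of either list for 135 (28.2%, compared with 24.3%). A further 82 genes (17.1%, compared with 14.6% of the others) had sites of the ZT0 list alone. Sites of the ZT12 list alone were present for 16 (3.34%, compared with 2.32%).

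Counted once each, 679 different ZT0 sites and 456 ZT12 sites lay near the genes. Overlap by at least 1 bp with the other list (a shared site) was found for 57.3% of the ZT0 sites (interval 53.5 to 61.0%), compared with 60.4% near the other circadian genes and 56.2% of the whole list. Among the ZT12 sites 85.7% were shared (interval 82.2 to 88.7%), compared with 88.0% near the others and 83.6% of the whole list. Sites near genes that peak at ZT12 were thus listed at both times about as often as sites elsewhere. By position, 24.0% of these ZT0 sites had an annotated transcription start within 1 kb (interval 20.9 to 27.4%), 32.3% lay in an intron, 7.95% in an exon and 35.8% between genes. Near the other circadian genes a start lay within 1 kb of 30.4% of the ZT0 sites (interval 27.8 to 33.1%), and near all protein-coding genes of 21.9%. For ZT12 sites the shares were 25.7% near genes peaking at ZT12 and 30.5% near the others, with overlapping intervals (21.9 to 29.9% and 27.5 to 33.8%).

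All 6 clock-linked output genes had a ZT0 site in the gene extended by 50 kb, and 4 had a ZT12 site (66.7%), against 71.5% and 58.7% of all circadian genes. With an extension of 10 kb the counts were 3 and 2, and 3 had a ZT0 site when only sites wider than the median of the ZT0 list were used. Wee1, the kinase that holds back entry into mitosis, had 2 ZT0 and 2 ZT12 sites. A ZT0-only site lay 38.2 kb upstream of its start, at chr7:117227206-117227637 in an intron of Zfp143. Downstream, between genes, a wide ZT0 site at chr7:117307648-117308656 (1009 bp) overlapped both ZT12 sites, so the 2 ZT12 peaks correspond to 1 ZT0 peak. Swap70, which encodes a protein acting on actin and Rac signalling, starts 99.4 kb from Wee1 on the same strand and also peaks at ZT12. Its sites, 2 in each list, were shared between the times, at 44.2 kb downstream of the start in an intron and 65.1 kb downstream between genes. Between the starts of Wee1 and Swap70 lay 1 ZT0 site and 2 ZT12 sites.

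Usp2, a deubiquitinase with strongly rhythmic isoforms, had the most sites of the clock-linked outputs, 5 at ZT0 and 3 at ZT12. A site of each list covered its start (ZT0 chr9:43874907-43875311), and a further pair of ZT0-only sites lay in introns 7.40 and 9.76 kb downstream. In all, a ZT12 site covered the start of 13 genes, Usp2 among them, and each of these 13 starts was covered by a ZT0 site as well. Nampt, the rate-limiting enzyme of NAD salvage, had 1 site in each list at 77.3 kb downstream, and Upp2, a uridine phosphorylase, had 2 ZT0 sites and 1 ZT12 site, the nearest 98.2 kb downstream in an intron of Upp2 itself. Rgs16, a regulator of G protein signalling, and Gm129, a repressor of CLOCK-ARNTL activity, each had 1 ZT0-only site and no ZT12 site. For Rgs16 that site was intronic, 2.13 kb downstream of the start, and the nearest ZT12 site was 338 kb away. For Gm129 it was 24.5 kb upstream, and the nearest ZT12 site was 205 kb away. The outputs therefore ranged from a site over the start to none within 200 kb at ZT12.

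**Figure D2:**
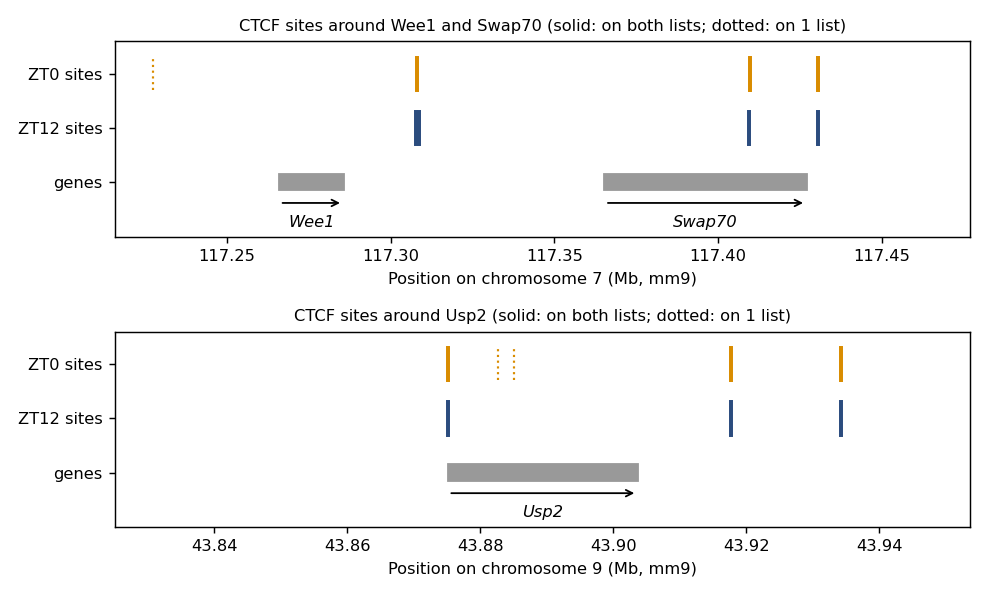
CTCF sites (vertical marks; ZT0 orange, ZT12 blue) around Wee1 and Swap70 on chromosome 7 and around Usp2 on chromosome 9, with position in Mb (mm9) on the horizontal axis, genes as grey boxes and arrows in the direction of transcription; solid marks overlap a site of the other list and dotted marks do not. Wee1 has 1 dotted ZT0 mark upstream and a pair of ZT12 sites drawn as a single broad mark downstream, and Usp2 has sites of both lists at its start.

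Of the 13 transcription regulators, 10 had a ZT0 site and 6 a ZT12 site (76.9% and 46.2%, against 71.5% and 58.7% of all circadian genes), and none had more ZT12 than ZT0 sites (against 6.94% of all circadian genes). With an extension of 10 kb, or with the wider sites alone, 6 had a ZT0 site. Cebpb, a bZIP factor of hepatic metabolism and the acute phase, had 5 ZT0 and 3 ZT12 sites. All 5 ZT0 sites lay upstream or over the start, and the nearest covered the start (chr2:167514014-167514549), while the nearest ZT12 site ended 0.147 kb upstream of it. Hnf4a, the nuclear receptor that maintains hepatocyte identity, also had 5 ZT0 sites but only 2 at ZT12. Esrra, a nuclear receptor of mitochondrial genes, had 2 shared sites, with the nearer 2.67 kb upstream of its start. Cebpd, Foxo3 and Atf6, which act in the acute phase, in insulin signalling and in the endoplasmic reticulum stress response, had no listed site within 50 kb of the gene. Their nearest ZT0 sites were 698, 245 and 129 kb from the start. Closely related factors thus had very different surroundings, as Cebpb and Cebpd show.

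Of the 11 genes of sterol and lipid synthesis, 8 had a site at ZT0 and 8 at ZT12 (all circadian genes, 71.5% and 58.7%), the latter falling to 4 with the wider sites alone. Acaca, the acetyl-CoA carboxylase that commits carbon to fatty acids, had 3 at ZT0 and 2 at ZT12, with 1 shared, and Lpin1, a phosphatidate phosphatase of triglyceride synthesis, reached the same sum with 4 and 1. Thrsp, a lipogenic protein, had a shared site 7.16 kb upstream of its start, the shortest distance of this group in both lists. Elovl6, a fatty acid elongase, and Stard4, a sterol carrier, had no listed site within 50 kb. The same 8 genes had a site at both times.

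Of the 10 genes of glucose and glycogen metabolism, 6 had a ZT0 site and 5 a ZT12 site (all circadian genes, 71.5% and 58.7%), the latter falling to 3 with an extension of 10 kb. Pck1, the gluconeogenic phosphoenolpyruvate carboxykinase, had 4 ZT0 and 3 ZT12 sites; a ZT0-only site at chr2:172984961-172985261 lay 6.41 kb downstream of the start, between genes. Slc2a4, the insulin-responsive glucose transporter, had a ZT0-only site 0.760 kb upstream of its start and a shared site 13.7 kb downstream. Pgm2l1, a sugar phosphate mutase-like enzyme, was the only gene here with more sites at ZT12 (4) than at ZT0 (3). Ugp2, Slc37a4 and Pfkfb2, which act in glycogen synthesis, glucose 6-phosphate transport and the control of glycolysis, had no site within 50 kb. Genes of glycogen and of glucose release were thus found with sites and without.

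Of the 17 genes of mitochondria and fat oxidation, 13 had a ZT0 site and 12 a ZT12 site (76.5% and 70.6%, against 71.5% and 58.7% of all circadian genes), and with an extension of 10 kb 7 and 6 did. Ndufaf4, an assembly factor of respiratory complex I, had a shared site over its start (ZT0 chr4:24824973-24825320). Afg3l2, a protease of the inner mitochondrial membrane, had no ZT0 site and 1 ZT12-only site 8.51 kb upstream. Coq10b, Dnajc19 and Timm8a1, which act in coenzyme Q function and protein import, had none; the nearest site to Timm8a1 on chromosome X was 1060 kb away in both lists.

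Of the 16 genes of the endoplasmic reticulum and secretory pathway, 10 had a ZT0 site (62.5%, against 71.5% of all circadian genes) and 7 a ZT12 site (43.8%, against 58.7%). These counts fell to 4 and 2 with an extension of 10 kb and to 6 and 4 with the wider sites alone. The shares of all 479 genes fell too, to 40.9% and 29.4% with 10 kb and to 47.4% and 37.8% with the wider sites. Vcp, the segregase that extracts proteins for degradation, had 5 ZT0 and 3 ZT12 sites, the ZT12 sites all shared. Copb1, a subunit of the COPI vesicle coat, had 1 ZT0-only site 27.1 kb upstream, and its nearest ZT12 site was 188 kb away. Tmed4, a cargo receptor of early secretion, had a ZT0-only site over its start and no ZT12 site within 50 kb. Surf4, a cargo receptor for export, had in contrast a ZT12-only intronic site 3.32 kb downstream beside 1 shared site. Alg6, Atf6, Man2a1, Rab18, Trappc2l and Yod1 had no site in either list. Genes of secretion therefore included ones with a start site at ZT0 alone and ones with a near site at ZT12 alone.

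Of the 16 lysosome and autophagy genes, 14 had a ZT0 site and 12 a ZT12 site (all circadian genes, 71.5% and 58.7%), and with an extension of 10 kb 8 and 7 did. Becn1, which nucleates autophagosomes, had a shared site over its start and 2 further ZT0-only sites. Sh3glb1, which binds the Becn1 complex, also had a shared site over its start and another 3.19 kb upstream. Ostm1, a partner of a lysosomal chloride transporter, had 3 ZT0 and 2 ZT12 sites, the nearest 53.6 kb downstream. Atp6v0a2 and Atp6v1e1, subunits of the proton pump that acidifies lysosomes, had none. No gene of this list had more ZT12 than ZT0 sites (against 6.94% of all circadian genes).

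Of the 17 genes of detoxification and canalicular transport, 9 had a ZT0 site and 8 a ZT12 site (52.9% and 47.1%, against 71.5% and 58.7% of all circadian genes), and 6 had neither. With an extension of 10 kb, 3 had a ZT12 site. Gss, the glutathione synthetase, had 3 sites in each list, with 1 shared, and Txnrd1, a thioredoxin reductase, had 4 and 2. Fmo2, a flavin-containing monooxygenase, had a ZT0-only intronic site 2.53 kb downstream of its start. Abcb1a and Abcb4, neighbouring transporters of drugs and phospholipid, lay 748 and 981 kb from the nearest ZT0 site. Akr1c12 and Akr1c19, aldo-keto reductases, had no site in the extended gene, while Akr1c14 of the same cluster had 2 ZT12-only sites and no ZT0 site. Both of these ZT12-only sites, at chr13:4109781-4110051 and chr13:4128397-4128705 between genes, lay between the starts of Akr1c14 and Akr1c19, and the nearest ZT0 site was 383 kb from the Akr1c14 start. Ugt2b34 and Sult1d1, conjugating enzymes, had none within 50 kb.

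Of the 14 genes of the cell cycle and DNA repair, 10 had a ZT0 site and 9 a ZT12 site (71.4% and 64.3%, against 71.5% and 58.7% of all circadian genes), and 12 had equal numbers in both lists, counting the 4 with none. Of all 479 genes, 24.6% had equal numbers above 0 and 28.2% had no site, compared with 26.5% and 24.3% of the others. With an extension of 10 kb, 5 of the 14 genes had a ZT0 site and 4 a ZT12 site. Rrm2, the regulatory subunit of ribonucleotide reductase, had 4 sites in each list, all shared, the nearest 0.167 kb (ZT0) and 0.312 kb (ZT12) downstream of its start. Brip1, Fancl, Dclre1a and Ccne2, which act in crosslink repair and S-phase entry, had none. The genes with more ZT0 sites were Ccne1, a cyclin of S-phase entry (4 and 2), and Brca2, a recombination factor (1 and 0).

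**Figure D3:**
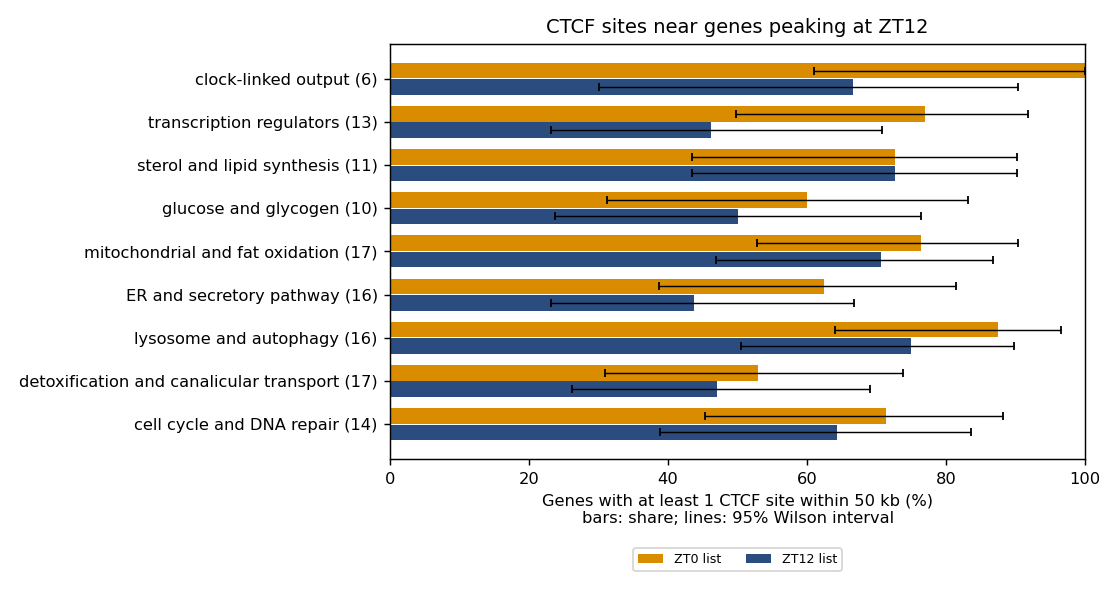
Share of genes with at least 1 CTCF site in the gene extended by 50 kb (horizontal axis, percent) for each role list of genes peaking at ZT12, with the number of genes in brackets, ZT0 in orange and ZT12 in blue; lines are 95% Wilson intervals. The intervals are wide and overlap among all lists, from 52.9% (detoxification) to 100% (clock-linked output) at ZT0.

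The genes with the most sites were not clock outputs. Acot7, an acyl-CoA thioesterase, had 9 ZT0 and 6 ZT12 sites, and Tbc1d16, a Rab GTPase-activating protein, had 9 and 5. Both are long genes, of 93.7 and 85.5 kb. Cdc42bpg, a kinase bound by Cdc42, had 6 in each list, and Pcsk4, Pdxk, Slc38a3 and Slc9a3r1 had 6 and 5. Slc4a2, an anion exchanger, had 6 and 4, and Actn1, an actin crosslinker, 5 and 4. The largest excess of ZT0 sites was that of Actr1a, a dynactin subunit, Igsf8, a tetraspanin partner, and Tbc1d16. Actr1a and Igsf8 each had 5 ZT0 sites and 1 at ZT12. In the other direction, Rph3al, a Rab effector of exocytosis, had 4 ZT12 sites and 1 ZT0 site, with 3 of the ZT12 sites absent from the ZT0 list, and Mllt1, a transcription elongation factor, had 2 ZT12-only sites and no ZT0 site. Abca6, a lipid transporter, had 1 ZT12-only site 16.7 kb upstream. These excesses are those of the lists as deposited, of which the ZT0 list is the longer.

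At the other end, Gm6395, Phf14, Prex2, Rcbtb1 and Timm8a1 were farthest from any site, the first at 4373 kb from the nearest ZT0 site and 4574 kb from the nearest ZT12 site. Phf14, a PHD finger protein, lay 2956 kb and Prex2, a Rac exchange factor, 1871 kb from the nearest ZT0 site. These 5 genes lie on different chromosomes. By chromosome, 37 of 43 genes on chromosome 7 had a ZT0 site, 19 of 39 on chromosome 1 and 5 of 17 on chromosome 18. On chromosome X, 3 of 6 had a ZT0 site and 0 of 6 a ZT12 site. Among the other circadian genes, a ZT0 site was present for 48 of 57 on chromosome 7, 32 of 43 on chromosome 1, 8 of 14 on chromosome 18 and 3 of 17 on chromosome X. A ZT12 site was present for 1 of these 17 genes on chromosome X.

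Starts of genes peaking at ZT12 lay close together in 50 pairs, at most 200 kb apart, which involved 82 genes. A ZT0 site lay between the starts in 26 pairs (52.0%) and a ZT12 site in 24 (48.0%), and 21 pairs had none of either list. Pairs with a ZT0 site between them were farther apart, at a median of 95.1 kb against 36.4 kb, so pairs with and without a site differed in spacing. The counts depended on the distance allowed. Of the 34 pairs with starts at most 100 kb apart, 15 had a ZT0 site between them and 13 a ZT12 site. Dclre1a and Nhlrc2, whose starts lie 0.235 kb apart on opposite strands, had no site between them. Klhl21 and Acot7, 169 kb apart, had 8 sites of each list between them, and Rrm2 and its neighbour Cys1, 26.4 kb apart, 1 of each.

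The stretch between the ZT0 sites that flank a start had a median length of 200 kb, and between ZT12 sites 329 kb. In the ZT0 stretch, 99 of 478 genes with a site on both sides (20.7%) shared the stretch with another circadian gene start, and 53 (11.1%) with another gene peaking at ZT12. Summed over the genes, 70 of the 142 circadian neighbours in the same stretch peaked at ZT12 and belonged to the same set (49.3%), where the set makes up 38.2% of the table. A pair within the set is counted from both genes and a pair with another circadian gene once, and gene clusters such as Akr1c enter more than once, so no error was attached to this share.

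Most listed sites held the CTCF motif, but as the lists may have been selected with a motif search, this share describes the lists and not CTCF binding at large. A matrix of 19 bp was learned from the sites away from genes peaking at ZT12, and its highest-weight letters read TGGCCACCAGGGGGCGCCA on one strand; both strands were searched. A match above a score passed by 1% of regions 5 kb away was found in 65.8% of all ZT0 sites and 67.8% of all ZT12 sites, against 1.09% and 1.01% of those regions, a level that the choice of score fixes. Near the genes peaking at ZT12, 66.6% of ZT0 sites and 67.5% of ZT12 sites had a match, with 63.8% for ZT0-only sites (interval 58.1 to 69.1%) and 68.6% for shared ones (63.9 to 73.0%). The motif was thus common in both kinds of site, and a difference between them was not detectable beyond counting error.

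At the starts the share with a match was lower than farther away in both lists, with overlapping intervals for these genes at ZT12. Of the 40 nearest ZT0 sites within 1 kb of a start, 16 had a match (40.0%, interval 26.3 to 55.4%), whereas 68.1% of the nearest ZT0 sites 1 to 50 kb from a start did (interval 61.8 to 73.8%, 229 sites). At the starts of the other circadian genes the share was 44.2% (38 of 86 sites), close to that of the genes peaking at ZT12. At ZT12, 12 of 24 start sites had a match (interval 31.4 to 68.6%), compared with 70.2% of the nearest sites 1 to 50 kb from a start (63.3 to 76.2%), and these intervals overlap. The ZT12 share at the starts of the other circadian genes was 52.3% (34 of 65 sites). For all circadian genes together it was 51.7% (interval 41.5 to 61.8%, 89 sites). Of the 16 matches at ZT0, 11 lay on the strand of the gene, and of the 12 at ZT12, 10 did, with 65.8% and 67.6% on the strand of the gene for the others. Among the genes named here, the sites over the starts of Usp2, Becn1, Sh3glb1 and Tmed4 had no match, nor had those of Polr3a, the largest subunit of RNA polymerase III, Ppif, the mitochondrial cyclophilin, and Prep, a prolyl peptidase. No match says only that the letters did not reach the score in that site.

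The following matches are shown because they lie in the nearest sites of genes described above, 5′ to 3′ on the strand of the motif, with the 19 matched bases in capitals. Coordinates, in mm9, are those of the whole printed stretch, which includes 5 bases on each side of the match. The first set is from sites within 1 kb of a start and was picked from the matches on the strand of the gene; 5 of the 16 at ZT0 lay on the other strand. The stretches of Cebpb (chr2:167514161-167514189), Ndufaf4 (chr4:24825166-24825194) and Rrm2 (chr12:25393533-25393561), all on the plus strand, are in sites of both lists. That of Slc2a4 (chr11:69762574-69762602, minus strand) is in a ZT0-only site. The highest-weight letter stood at 12 of the 19 positions in Cebpb and Rrm2, 13 in Slc2a4 and 16 in Ndufaf4.
Cebpb: cgcgtCCTCCAGCAGGGGGCGGGCggcgg
Ndufaf4: cctccCGGCCACCAGGGGGCGACGagcgc
Rrm2: ttaggCTCCCAGTAGAGGGCGCCCgctcg
Slc2a4: tcgctCTCCCTCTAGGTGGCGCCAgaagc

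The second set is from clock-linked outputs and from Swap70 and Copb1, where the sites lie farther from the start. For Wee1 the ZT0-only upstream stretch (chr7:117227473-117227501) and the downstream stretch of the ZT12 site (chr7:117307809-117307837) run against the gene, as do those of Swap70 (chr7:117409534-117409562), Nampt (chr12:33582526-33582554) and Rgs16 (chr1:155589717-155589745). The Copb1 stretch (chr7:121425354-121425382), in a ZT0-only site between genes, runs with the gene. All of these are on the minus strand of mm9. The sites lie in an intron of Zfp143 (Wee1 upstream), in introns of Swap70 and Rgs16, and between genes (Wee1 downstream, Nampt and Copb1). The highest-weight letter stood at 17 of 19 positions in Rgs16, 15 in Swap70, 14 in Wee1 downstream and 12 in the others.
Wee1 upstream: aaaagCCACCACTAGATGGCACCAaacag
Wee1 downstream: cacggGCGCCAGCAGGGGGCGAGAcgttc
Swap70: gcccaTGGACAGCAGGGGGCAGCAgaggg
Nampt: ccaggTGGCCAGAAGGTGGCAGTGtagtc
Rgs16: aggtgTGTCCACCAGGTGGCGCCActgct
Copb1: tgtggAGGCCAGTAGAGGGCACTGgattc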

How the data were processed

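Lists of CTCF ChIP-seq peaks from mouse liver at ZT0 and ZT12 were analysed. The authors aligned reads to mm9 (NCBIM37) with Bowtie2, applied a mapping quality filter (samtools), discarded duplicates (Picard) and used MACS2 at default settings. The deposited lists are labelled as peaks of both replicates with FIMO; how replicates were combined and how FIMO was applied is not given in the sources used here. Starts were read as 0-based and are printed 1-based.

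Genes, coordinates and peak times came from the study's table of circadian genes (1256 entries, 1254 genes). The labelled peak time was the highest of the table's values for all 479 genes, and 475 of them had the start and end of the mm9 annotation. The members and lists were chosen with earlier results of these data known. A site was counted if it overlapped the gene extended by 50 kb by at least 1 bp, and distances ran from the gene start to the nearest base. The rule for naming genes took Wee1, Swap70 and Copb1; all clock-linked outputs; in each of 9 role lists the gene with most sites, those nearest to a site of each list and those without any; and the genes with most sites, starts nearest to both lists, largest excess at 1 time, or farthest from a site. Hnf4a, Esrra, Lpin1, Txnrd1, Ccne1, Brca2, Klhl21, Nhlrc2 and Cys1 were added after their values were seen. Some genes that the rule takes are not reported here. The motif matrix was seeded by the 8-base word most in excess in the sites. No p-value was computed, since each time point has 1 list. The intervals take genes or sites as units and not replicates. Counting and motif steps were tested on simulated data. Versions were matplotlib 3.10.9, pysam 0.24.0, pandas 2.3.3, SciPy 1.17.1 and NumPy 2.4.6 under Python 3.11.15.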

Additional observations from a re-analysis of the deposited data

How the results depend on the processing

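Gene coordinates from the annotation, autosomes only, leaving the excluded genes out of both groups, sites up to 500 bp apart taken as shared, and distances to site midpoints moved no value beyond its 95% interval, and the genes peaking at ZT12 had the lower share with a site and the longer median distance under each alternative run. Whether the interval of the difference between the groups holds 0 varied. At ZT0 it did in the values reported, but not with autosomes only (-11.2 to -0.817 points), the excluded genes left out (-10.4 to -0.0455), 50 kb around the start (-12.7 to -1.62), sites wider than the median (-13.1 to -1.76) or the widest ZT0 sites (-15.8 to -4.65). At ZT12 it did not, but did with a 10 kb extension (-9.03 to 1.47) and with sites wider than the median (-10.7 to 0.424). Extending genes by 10 kb gave 40.9% with a ZT0 site, 29.4% with a ZT12 site and 21.3% with more ZT0 sites; by 100 kb, 79.7%, 66.6% and 52.4%. Counting 50 kb around the start gave 57.6% and 46.1%. With only sites wider than their list's median, 47.4% had a ZT0 and 37.8% a ZT12 site, 25.3% had more ZT0 sites, medians were 80.4 kb (others 51.8) at ZT0 and 119 kb (others 98.3) at ZT12, and 49.7% of ZT0 and 71.8% of ZT12 sites were shared. With the widest ZT0 sites, as many as at ZT12, 54.3% had a ZT0 site (members minus others -10.2 points), medians were 59.7 and 40.5 kb, 67.1% of ZT0 and 70.2% of ZT12 sites were shared, and 20.3% had more ZT0 and 17.5% more ZT12 sites. Lists of equal length thus left a smaller excess of ZT0 sites, by construction in part; the cause of the other changes was not tested. Requiring 50% overlap left 80.3% of ZT12 sites shared. Starts within 100 kb gave 15 pairs with a ZT0 and 13 with a ZT12 site between. Of 90 role-list counts recomputed, 19 changed by more than 1.5 times; clock-linked outputs with a ZT0 site fell from 6 to 3 with a 10 kb extension, with sites wider than the median and with the widest ZT0 sites. No paired analysis was possible because neither list separates its replicates, and for that reason leaving out a replicate could not be run. Depth and peak height are unknown.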
